A study of Mus musculus with 36 samples.

Results

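The genes described here encode the intercalated disc, the end-to-end contact between heart muscle cells. They are Gja1 and Gja5 for the gap junction, Cdh2, Jup and Ctnna3 for the adherens junction, Pkp2, Dsp and Dsg2 for the desmosome, and Tjp1 for a scaffold that borders the gap junction. These 9 genes, taken by name, are 9 of the 18193 genes with a probe set of their own on the array. They are covered by 26 probe sets, and the brightest of each gene by its mean over all 36 arrays stood for that gene. Of the 9, 8 passed a filter on dim signals and were among the 12626 genes tested, and Gja5 lay under it.

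The question was what single branches of MAP kinase signalling, switched on in muscle cells of the adult heart, do to gene expression. Gene expression was measured in left ventricles on 36 Affymetrix mouse genome arrays, of mice on a C57black background. HRas-v12, an active Ras, MKK3bE, an active kinase above p38, and MKK7D, an active kinase above JNK, were each carried as a floxed transgene driven by the alpha myosin heavy chain promoter, which restricts them to heart muscle. The same promoter drove Mer-Cre-Mer, a Cre recombinase that tamoxifen activates, and double transgenic mice and littermates lacking the transgenes all received tamoxifen (20 mg/kg on 3 days in a row at 12 weeks of age). Late hearts were taken 2 to 4 weeks and early hearts 4 to 7 days after the start of tamoxifen. HRas-v12 had 3 male and 3 female arrays late, and 3 male and 2 female arrays early. MKK3bE had 3 male and 2 female arrays late and 2 female arrays early. MKK7D had 3 female arrays at each time, set against 3 female MKK7D control arrays of that time. The other controls, 3 male and 3 female arrays whose titles name no time, were the reference for HRas-v12 and MKK3bE hearts at either time. Whether every array comes from an animal of its own is not said in the titles, which only number them. The p-values therefore cover the spread between arrays, which may be technical.

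Heart muscle cells are joined by cadherins, which hold the cells together and anchor actin at adherens junctions and the desmin network at desmosomes. In the heart both kinds of contact merge into a mixed zone in which plakoglobin, plakophilin-2 and alpha-T-catenin meet. Gap junctions lie beside them and pass the electrical impulse, and loss of plakophilin-2, desmoplakin or plakoglobin is known to disturb both the mechanical and the electrical contact. JNK activation in heart muscle has been reported to lower connexin43, the protein of Gja1.

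The start regions of 4 of these genes are shown because their signals moved in early HRas-v12 hearts, Gja1, Dsp and Tjp1 down and Jup up. Each line gives 250 bases before and 50 after the annotated start, read 5′ to 3′ on the gene's strand from RefSeq (GRCm38.p6). Capitals mark matches, on either strand, to an AP-1 motif (TGANTCA), a CRE (TGACGTCA), an Ets core (CCGGAA) or a GC box (GGGCGG).
Gja1, chr10:56377050-56377349, plus strand: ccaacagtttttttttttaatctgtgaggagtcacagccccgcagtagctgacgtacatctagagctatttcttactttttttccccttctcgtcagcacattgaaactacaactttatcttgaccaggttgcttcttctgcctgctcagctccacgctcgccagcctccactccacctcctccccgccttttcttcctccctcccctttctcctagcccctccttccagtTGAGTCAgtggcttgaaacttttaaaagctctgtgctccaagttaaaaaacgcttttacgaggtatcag
Dsp, chr13:38151044-38151343, plus strand: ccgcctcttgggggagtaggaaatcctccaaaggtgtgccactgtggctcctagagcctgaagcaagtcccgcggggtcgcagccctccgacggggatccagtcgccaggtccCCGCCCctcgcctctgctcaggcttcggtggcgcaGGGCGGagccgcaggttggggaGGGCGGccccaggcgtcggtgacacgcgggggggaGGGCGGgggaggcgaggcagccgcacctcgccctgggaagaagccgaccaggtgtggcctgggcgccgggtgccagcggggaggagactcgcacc
Tjp1, chr7:65371195-65371494, minus strand: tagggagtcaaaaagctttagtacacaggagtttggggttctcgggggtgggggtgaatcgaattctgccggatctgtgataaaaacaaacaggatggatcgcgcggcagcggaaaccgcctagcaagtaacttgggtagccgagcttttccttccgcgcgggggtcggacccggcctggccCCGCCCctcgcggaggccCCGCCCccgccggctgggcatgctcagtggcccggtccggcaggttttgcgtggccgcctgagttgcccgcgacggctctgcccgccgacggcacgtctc
Jup, chr11:100397741-100398040, minus strand: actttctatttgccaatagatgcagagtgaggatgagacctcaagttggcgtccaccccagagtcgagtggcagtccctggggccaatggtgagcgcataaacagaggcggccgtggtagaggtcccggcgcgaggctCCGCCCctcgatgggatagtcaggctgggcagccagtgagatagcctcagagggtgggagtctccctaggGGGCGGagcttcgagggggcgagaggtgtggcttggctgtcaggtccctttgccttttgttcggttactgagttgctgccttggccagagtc

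The window of Gja1 held 1 AP-1 match, at -19 from the start, and no match to the other motifs. The window of Dsp held 4 GC boxes, and those of Tjp1 and Jup held 2 each, with no match to the other motifs in any of them. Among 32851 start regions of the same length, 7.81% held the AP-1 motif, 1.79% the CRE, 14.9% the Ets core and 35.7% the GC box. The 4 windows were 47.7% G and C for Gja1, 73% for Dsp, 65.3% for Tjp1 and 60.7% for Jup. A match is a run of letters, not a bound site.

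Before any comparison, Esr1, the estrogen receptor gene whose hormone-binding part is built into Mer-Cre-Mer, and sex-linked genes were set against the titles. They went against the titles on 6 of the 36 arrays. Esr1 ran from 294 to 832 on shared controls other than control female replicate 2, which read 7943 and set the limit of the check. It lay under that limit (688, 2915 and 1327) on the arrays labelled HRas-v12 female early replicate 3 and male late replicates 1 and 3. Of these, the male arrays read higher than the other shared controls. Early HRas-v12 males read 12639.5, 12437 and 21172.5, above the limit but below the transgenic arrays of every other group that passed. Esr1 was at the level of transgenic arrays (106402 and 91291) on the arrays labelled MKK7D control late replicates 8 and 9. The array labelled control female early replicate 1 of the MKK7D line carried sex-linked signals of a male. Its Esr1 read 7288, and that of early MKK7D control replicate 2 read 3506. Both lay under the limit but above the shared controls other than control female replicate 2. The HRas-v12 changes of the 9 disc genes by their brightest probe sets, and the called differences between lines, times and control sets, are given with and without these arrays. The heart muscle list was bright on every array, since even its dimmest marker, Ryr2, had a median signal of 62816.

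Values are signals, linear intensities in the arbitrary unit of the array, and changes are differences of log2(signal + 32). A gene is called where the p of a limma model fitted to all genes, adjusted over all of them, is under 0.05. Early HRas-v12 hearts held the most calls among the 8 tested genes. Dsp, Tjp1 and Gja1 fell and Jup rose, 4 of 8 in all, while 33.8% of all genes tested changed at a limma adjusted p under 0.05. By direction, 1 of 8 rose beside 15.1% of all genes, and 3 of 8 fell beside 18.7%. The median log2 change of the 8 was -0.20, beside -0.04 over all genes. In late HRas-v12 hearts Jup rose and Pkp2 fell, 2 of 8, beside 9.52% of all genes (4.86% rose and 4.66% fell). In early MKK3bE hearts Pkp2 rose and Dsg2 fell, 2 of 8, beside 6.26% of all genes (3.48% rose and 2.78% fell). In late MKK3bE hearts Dsg2 fell, 1 of 8, beside 10.4% of all genes (5.06% rose and 5.39% fell). In MKK7D hearts none of the 8 passed the limma test at either time, with 3 early and 1 late at an unadjusted p under 0.05. The test called 0.135% of all genes there early (0.0871% higher, 0.0475% lower) and 0% late. Of all 12626 genes, 1346 early and 643 late were at an unadjusted p under 0.05. Each of these counts rests on few genes, and none is read as particular to the disc.

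Separation of arrays gives a second view. Every early HRas-v12 array lay beyond every control for 1 of 8 genes, below, while this held for 4.27% of all genes (1.51% above, 2.76% below). Late HRas-v12 arrays were separated for 1 of 8, below, beside 1.39% of all genes (0.554% above, 0.832% below). Early MKK3bE arrays, only 2 against 3, were separated for 3 of 8, 1 above and 2 below, beside 42.5% of all genes (19.9% above, 22.6% below). Late MKK3bE arrays were separated for 2 of 8, both below, beside 10.1% of all genes (4.39% above, 5.69% below). In the MKK7D line it was 2 of 8 early, both above, beside 23.4% (11.3% above, 12.1% below), and 2 of 8 late, 1 each way, beside 12.5% (6.98% above, 5.53% below).

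**Figure D1:**
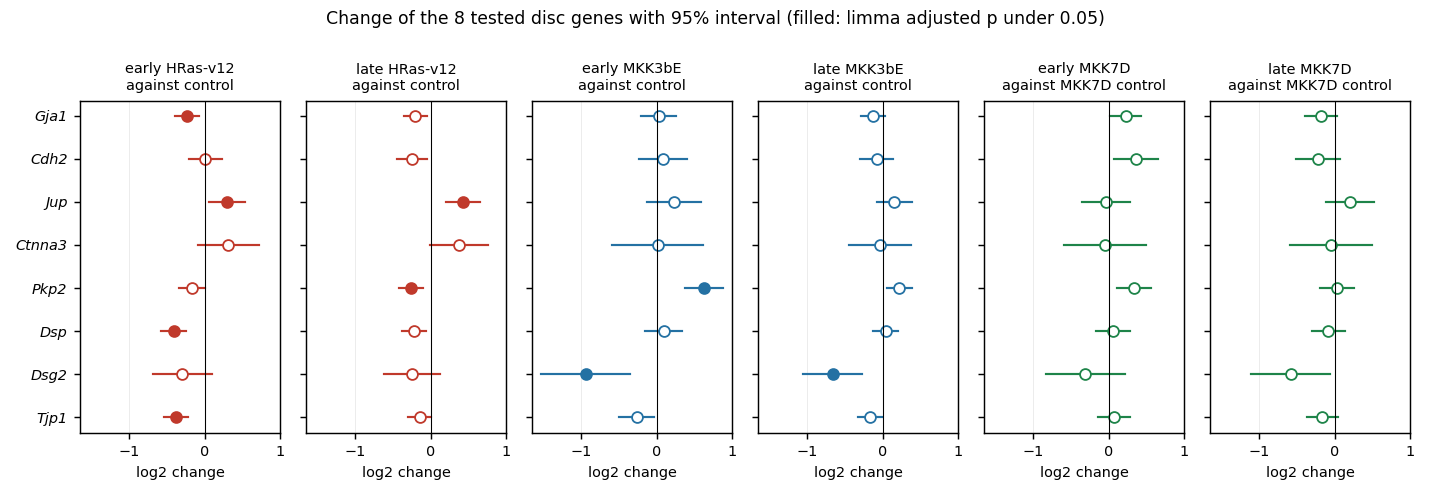
Log2 change (x axis, on log2(signal + 32)) of the 8 tested disc genes in 6 comparisons, as points with 95% intervals, filled where the limma adjusted p was under 0.05. The filled points are Gja1, Jup, Dsp and Tjp1 in early HRas-v12 hearts, Jup and Pkp2 in late HRas-v12 hearts, Pkp2 and Dsg2 in early MKK3bE hearts and Dsg2 in late MKK3bE hearts.

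Gja1 encodes connexin43, the main gap junction protein of working ventricular muscle. Its signal in early HRas-v12 hearts was 74812, 75455 and 78875 in males and 71932 and 67561 in females, against 103692, 81414 and 87943 in control males and 90700.5, 73935 and 80676 in control females. Of the 6 controls, female replicate 1 alone lay within the HRas-v12 range, and the other 5 lay above it. Gja1 was 1.18-fold lower (-0.24 ± 0.08 as log2 ± SE, limma adjusted p = 0.0191). Late in that line the signal was 75066, 75682 and 77879.6 in males and 68393, 70166 and 82054 in females, which overlapped the same controls. The late change was -0.20 (95% interval -0.35 to -0.05, limma adjusted p = 0.0729), and late and early hearts differed by 0.03 (95% interval -0.12 to 0.19, limma adjusted p = 0.818). Here and below, a p that misses the threshold does not show that values were alike.

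The early fall of Gja1 was not called without the array labelled female early replicate 3 of the HRas-v12 line (-0.21, adjusted p = 0.0594), without female early replicate 1 (-0.26, adjusted p = 0.055), without control male replicate 1 (-0.19, adjusted p = 0.0665) or without control female replicate 4 (-0.20, adjusted p = 0.0579), all from limma. After quantile normalization it turned to 0.04, adjusted p = 0.792. Gja1 had 5 further probe sets above the filter, and none of them was called lower in early HRas-v12 hearts. From the brightest down, 4 of them stood at -0.00015, -0.14, -0.13 and -0.77 (limma adjusted p over all probe sets = 0.999, 0.296, 0.717 and 0.062). The other, 1415801_at, stood at 0.81 early and 0.93 late on the log2 scale (limma adjusted p over all probe sets = 0.0289 and 0.0258). Its control signals were 35438, 36255 and 17784 in males and 9809, 8451 and 27445 in females. Control females 4 and 1 and control male 5 were the low ones, and control males 1 and 2 the high ones.

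In MKK3bE hearts Gja1 did not pass the test. Early females read 85826 and 80419.5, a change of 0.03 (95% interval -0.21 to 0.26, limma adjusted p = 0.907). Late hearts read 85037, 86494 and 84021 in males and 70514 and 74825 in females, a change of -0.13 (95% interval -0.28 to 0.03, limma adjusted p = 0.303). In early MKK7D hearts the signal was 61518, 73755 and 73154, against 58834, 55906 and 62765 in their controls. One transgenic array lay within the control range and the other two lay above it. The change was 0.23 (95% interval 0.02 to 0.44, limma adjusted p = 0.415). In late MKK7D hearts it was 51457, 61497 and 53898, against 62171, 60363 and 66014 in late controls, with overlap and a change of -0.18 (95% interval -0.39 to 0.03, limma adjusted p = 0.999). No fall of Gja1 was called in the MKK7D line, and the late interval reaches down to -0.39 on the log2 scale.

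Gja5 encodes connexin40, the gap junction protein of atrial muscle, the conduction system and arterial endothelium. Its only probe set was dim, with a median signal of 55.5 and a range of 21.3 to 1651, so it was not among the genes tested. Early HRas-v12 hearts read 148, 100.1 and 741 in males and 1650.5 and 89.3 in females, against 34, 367 and 56.2 in control males and 64.5, 54.8 and 56.8 in control females. Of these HRas-v12 arrays, all 5 lay above 5 of the 6 controls, and control male replicate 2 overlapped them. In a fit without the filter the change was 1.66 (SE 0.58, limma adjusted p = 0.0388). That change was 0.71 without female early replicate 1, which read 1651, and 2.61 without the array labelled female early replicate 3. Late HRas-v12 hearts read 41.2, 292 and 52.2 in males and 92.8, 572 and 564 in females, with 0.95 (SE 0.55, adjusted p = 0.313) in the same unfiltered fit, and 0.66 without the arrays in doubt. Late female replicates 3 and 4 lay above every control. Early MKK3bE females read 21.3 and 38.4, late MKK3bE males 42.7, 53 and 47.5 and late MKK3bE females 52.1 and 88.4, all at or near the level of controls other than male replicate 2. MKK7D hearts read 90, 27.2 and 46.8 late, against 28.4, 152 and 53.4 in controls, and 54.5, 43.7 and 36 early, against 61.3, 60.4 and 36.6 in controls, with overlap at both times.
Summed atrial and conduction system markers ranged from 88410.4 to 191199.6 in early HRas-v12 hearts and from 20516 to 250642 in controls, and their part in the Gja5 values was not tested. Of 9 such markers 1 fell and none rose in early HRas-v12 hearts, and of 7 arterial endothelial markers 2 fell and none rose (median log2 change -0.41). Of all genes tested, 18.7% fell and 15.1% rose there.

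**Figure D2:**
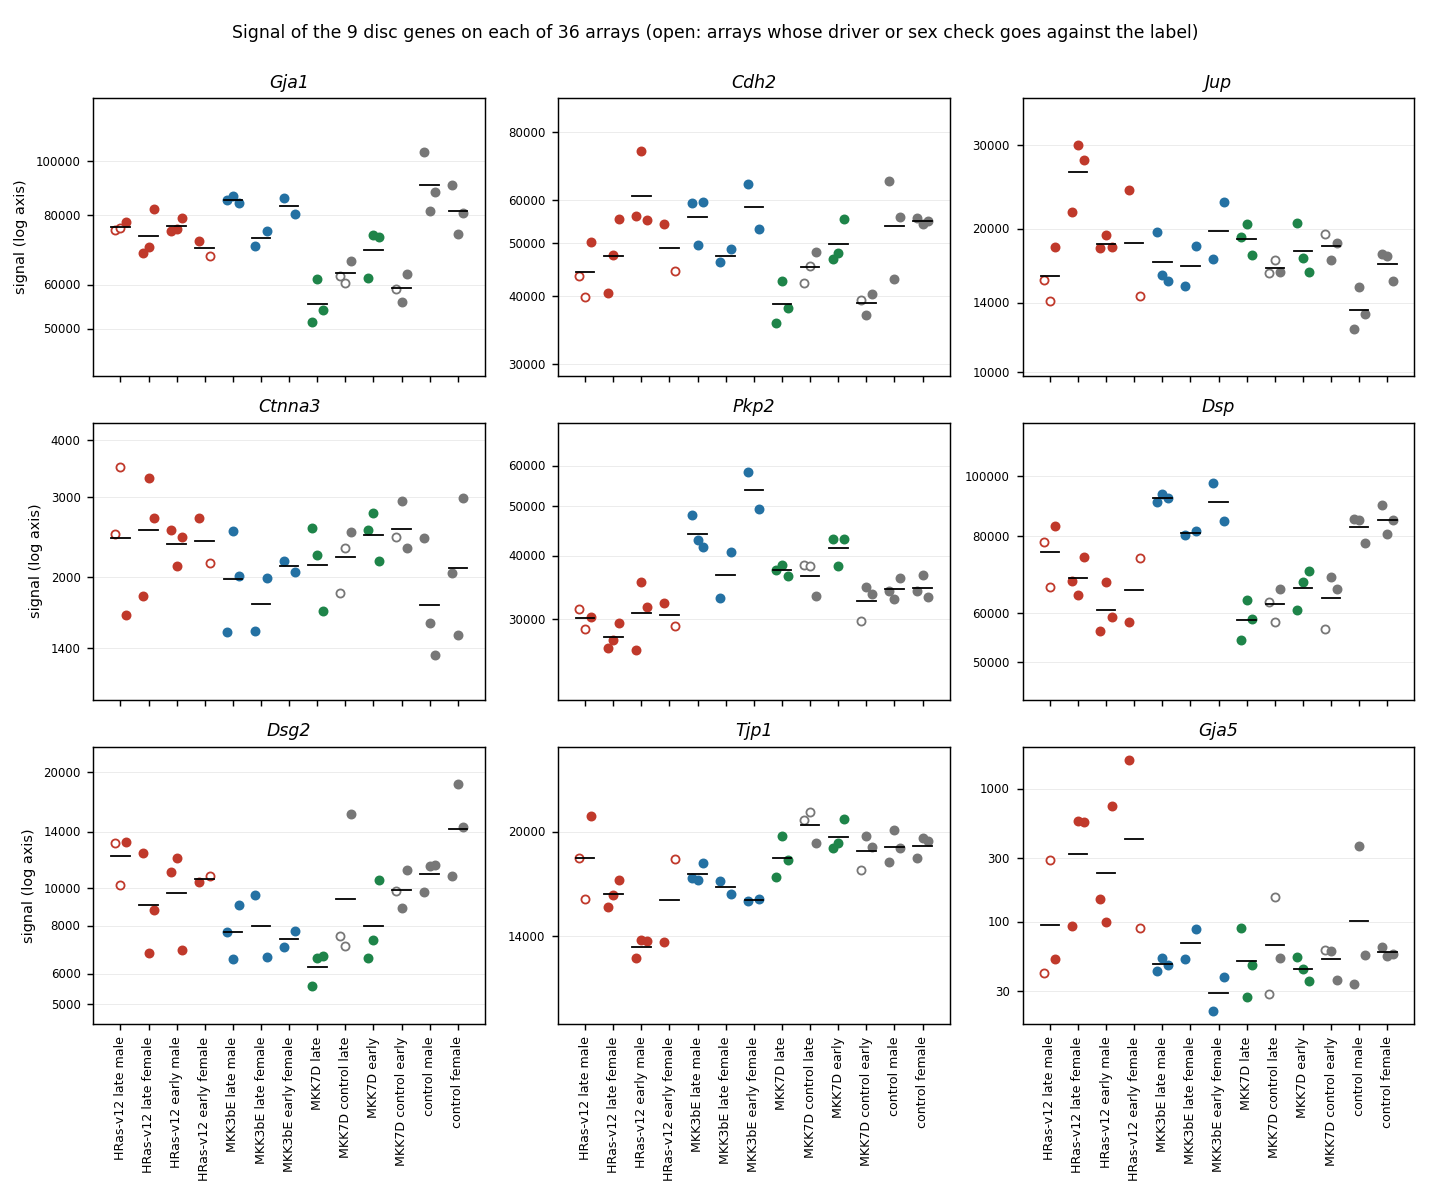
Signal (log axis) of the brightest probe set of each gene on each of 36 arrays, grouped by line, time and sex (red HRas-v12, blue MKK3bE, green MKK7D, grey controls), with a line at the mean of log2 values and open points for the 6 arrays whose checks went against the title. Pkp2 stood apart in early MKK3bE females, at 58417 and 49462 against at most 36599 in the shared controls, and Gja5 reached 1651 on 1 early HRas-v12 female array.

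Cdh2 encodes N-cadherin, the adhesion molecule of the disc. By its brightest probe set it did not pass the test in any comparison with control. Its signal in early HRas-v12 hearts was 56043, 73816 and 55292 in males and 54153 and 44391 in females, against 64988, 43088 and 55786 in control males and 55723, 54367 and 54927 in control females. The groups overlapped widely, and the change was 0.01 (95% interval -0.21 to 0.23, limma adjusted p = 0.959). Late HRas-v12 hearts read 43587, 39913 and 50197 in males and 40509.7, 47654 and 55410.5 in females, with a change of -0.25 (95% interval -0.45 to -0.04, limma adjusted p = 0.108). That change passed when each array was centred on its median (-0.33, adjusted p = 0.0498) and without control male replicate 2 (-0.33, adjusted p = 0.0464), in limma. In MKK3bE hearts the change was 0.09 (95% interval -0.24 to 0.41, limma adjusted p = 0.788) early and -0.08 (95% interval -0.30 to 0.14, limma adjusted p = 0.687) late.

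In early MKK7D hearts Cdh2 read 46828, 48033 and 55402, against 39371, 36912 and 40329 in controls. All 3 transgenic arrays lay above all 3 controls. The change was 0.36 (95% interval 0.07 to 0.65, limma adjusted p = 0.324). In late MKK7D hearts the order was the other way with overlap, 35736, 42628 and 38074 against 42339.5, 45337 and 48115 in controls, a change of -0.22 (95% interval -0.51 to 0.07, limma adjusted p = 0.999). The late MKK7D change minus the early one was -0.59 (limma adjusted p = 0.787), in a comparison where 0 of 8 members and 0.0158% of all genes were called, all of these lower. The other probe set of Cdh2, 1449244_at, did pass in both lines with shared controls. It changed by 0.78 in early and 0.34 in late HRas-v12 hearts (adjusted p over all probe sets = 5.06e-05 and 0.0468). In MKK3bE hearts it changed by 0.74 early and 0.42 late (adjusted p = 0.0138 and 0.0237). In early HRas-v12 males it read 59543, 71623 and 52246, against 34251, 24004 and 28545 in control males, without overlap. In early HRas-v12 females it read 25767 and 43351, against 21705 to 26640 in control females, with overlap. With the mean of both probe sets the early HRas-v12 change of Cdh2 was called (0.39, adjusted p = 0.00445), so the result for Cdh2 depends on the probe set.

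Jup encodes plakoglobin, which binds cadherin tails in both adherens junctions and desmosomes. It was the one gene of the 8 that rose in HRas-v12 hearts at both times. Late HRas-v12 hearts read 15657, 14109 and 18319 in males and 21696, 30063 and 27889.6 in females, against 12302, 15136 and 13222 in control males and 17732, 17504 and 15544 in control females. All 3 late females lay above all 6 controls, and in males replicates 1 and 3, whose Esr1 was under that of the highest control, overlapped them. Jup was 1.35-fold higher (0.44 ± 0.11 as log2 ± SE, limma adjusted p = 0.02). Without the arrays in doubt it stood at 0.54, adjusted p = 0.0311, and without female late replicate 3 it was not called (0.39, adjusted p = 0.0694).

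Early HRas-v12 hearts had Jup signals of 18234, 19374 and 18296 in males and 24156 and 14483 in females. The array labelled female early replicate 3 lay below all 3 control females, and the other 4 lay above all 6 controls. The early change was 1.24-fold (0.30 ± 0.12 as log2 ± SE, limma adjusted p = 0.0442). With adjustment over all probe sets in place of genes it missed the threshold (limma adjusted p = 0.0521). It was 0.12 without female early replicate 1 (adjusted p = 0.536) and 0.49 without replicate 3 (adjusted p = 0.00166). The early call also ended in limma when any 1 of male early replicates 1, 2 and 3, control males 1 and 5 or control females 1 and 2 was left out, with adjusted p of 0.0561 to 0.0976. In MKK3bE hearts the change was 0.23 (95% interval -0.13 to 0.59, limma adjusted p = 0.45) early and 0.16 (95% interval -0.08 to 0.40, limma adjusted p = 0.406) late. In MKK7D hearts it was -0.04 (95% interval -0.35 to 0.28, limma adjusted p = 0.957) early. Late MKK7D hearts read 19261, 20499.7 and 17619.6, all above their controls at 16185, 17246 and 16273. That change was 0.20 (95% interval -0.11 to 0.52, limma adjusted p = 0.999).

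Ctnna3 encodes alpha-T-catenin, which ties cadherin complexes to actin and binds plakophilin-2. Its brightest probe set ranged from 1348 to 3499 over the 36 arrays. In late HRas-v12 hearts it read 2493, 3499 and 1657 in males and 1825, 3314 and 2701 in females, against 2439.7, 1591 and 1348 in control males and 2050.0, 1498 and 2987 in control females. The groups overlapped, and the highest value was that of male replicate 3, an array in doubt. The change was 0.38 (95% interval -0.01 to 0.76, limma adjusted p = 0.184), and 0.10, adjusted p = 0.883 without the arrays in doubt. The early change was 0.32 (95% interval -0.09 to 0.73, limma adjusted p = 0.228). By this brightest probe set the changes in the MKK3bE and MKK7D lines lay between -0.05 and 0.01. The other probe set, 1441193_at, fell, by 0.62 early and 0.92 late in HRas-v12 hearts (limma adjusted p over all probe sets = 0.0427 and 0.0133). In MKK3bE hearts 1441193_at stood at -0.95 early and -0.71 late (limma adjusted p over all probe sets = 0.107 and 0.0544). In MKK7D hearts it stood at -0.25 early and 0.03 late, and none of these was called. So both probe sets of Ctnna3 pointed opposite ways in HRas-v12 hearts, and the size of change in MKK3bE hearts also depended on the probe set.

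Pkp2 encodes plakophilin-2, a plaque protein of desmosomes and the mixed zone. It rose in early MKK3bE hearts and fell in late HRas-v12 hearts. In early MKK3bE females the signal was 58416 and 49462, against 34109, 36599 and 33147 in control females. Both arrays lay far above the controls. Pkp2 was 1.55-fold higher (0.64 ± 0.12 as log2 ± SE, limma adjusted p = 0.00296), and without replicate 1 the change was 0.52, adjusted p = 0.0799. All 3 further probe sets rose or lay higher, and 1429183_at rose by 1.01 (limma adjusted p over all probe sets = 0.0016). That probe set read 38329 and 44165 in early MKK3bE females, against 18736, 19831 and 22748 in control females.

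In late MKK3bE hearts Pkp2 read 48082, 42962 and 41592 in males and 33022 and 40676 in females, against 34145, 32906 and 36157 in control males. All 3 males lay above every control, and female replicate 2 lay among the controls. The change was 0.22 (95% interval 0.05 to 0.39, limma adjusted p = 0.0803). The probe set 1429183_at was called late as well, at 0.46 (adjusted p = 0.0186). Late against early MKK3bE females stood at -0.55 (95% interval -0.83 to -0.28, limma adjusted p = 0.207), a comparison in which 0.00792% of all genes were called.

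Late HRas-v12 hearts had Pkp2 signals of 31474, 28652 and 30263 in males and 26349, 27274 and 29425 in females. All 6 lay below all 6 controls. Pkp2 was 1.19-fold lower (-0.26 ± 0.08 as log2 ± SE, limma adjusted p = 0.0375). Without the arrays in doubt the value was nearly the same (-0.25, adjusted p = 0.18) but no longer called. The call also ended without any 1 of HRas-v12 female late replicates 2 and 3, male late replicate 3, control males 1 and 5 and control females 4 and 1, with limma adjusted p of 0.0533 to 0.11. Early HRas-v12 hearts read 26042, 35439 and 31728 in males and 32251 and 29056 in females, where male replicate 2 overlapped the controls. The early change was -0.17 (95% interval -0.33 to 0.00, limma adjusted p = 0.12), and it was called without that array (-0.22, adjusted p = 0.044). Of the further probe sets, 1460511_at and 1420259_at lay lower at both times, and 1429183_at stood at 0.10 early and 0.00 late.

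In early MKK7D hearts Pkp2 read 43029, 38118 and 43079.6, against 29722, 34724 and 33670.1 in controls. All 3 transgenic arrays were higher than all 3 controls, and the change was 0.34 (95% interval 0.12 to 0.57, limma adjusted p = 0.197). With array weights that change was called (0.36, adjusted p = 0.0212, limma). In late MKK7D hearts it read 37429, 38335 and 36442, against 38352, 38133 and 33312 in controls, a change of 0.03 (95% interval -0.19 to 0.26, limma adjusted p = 0.999).

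Dsp encodes desmoplakin, which fastens desmin filaments to the desmosome. In early HRas-v12 hearts its signal was 56086, 67443 and 59198 in males and 58093 and 73719 in females, against 85109, 85023 and 78027 in control males and 89974, 80738 and 84793 in control females. All 5 HRas-v12 arrays lay below all 6 controls, and the array labelled female early replicate 3 was the nearest to them. Dsp was 1.33-fold lower (-0.41 ± 0.08 as log2 ± SE, limma adjusted p = 0.000517), and without the arrays in doubt it stood at -0.50, adjusted p = 1.49e-05. Late in that line it read 78272, 66198 and 82924 in males and 67694, 64169.5 and 74002 in females. All 3 females lay below all controls, and male replicates 1 and 4 overlapped them. The late change was -0.22 (95% interval -0.38 to -0.06, limma adjusted p = 0.0631), which passed when arrays were centred on their medians (-0.31, adjusted p = 0.0268), with array weights (-0.19, adjusted p = 0.0471) and without male late replicate 4 (-0.26, adjusted p = 0.0262), in limma.

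A further probe set of Dsp, 1435493_at, also fell in HRas-v12 hearts, by 0.50 early and 0.36 late on the log2 scale (limma adjusted p over all probe sets = 0.00176 and 0.0313). The other, 1427610_at, went the opposite way, at 0.43 early and 1.05 late (adjusted p = 0.246 and 0.0143). Its control signals were 27401, 48170.1 and 13407 in males and 12298, 11997 and 35796 in females. Control male 5 and control females 4 and 1 were the low ones, as they were for 1415801_at of Gja1. With the mean of all 3 probe sets the early change of Dsp was -0.16, adjusted p = 0.273, and after quantile normalization -0.18, adjusted p = 0.0342.

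In MKK3bE hearts Dsp was not called, with 97646 and 84535 in early females, 90708, 93542 and 92248 in late males and 80391 and 81487 in late females. All 3 late males lay above all 6 controls, and both late females lay among them. The changes were 0.09 (95% interval -0.15 to 0.34, limma adjusted p = 0.682) early and 0.04 (95% interval -0.12 to 0.21, limma adjusted p = 0.79) late. The probe set 1427610_at was called higher, by 1.36 early and 1.03 late (limma adjusted p over all probe sets = 0.0476 and 0.0197). With the mean of the 3 probe sets both were called (0.60, adjusted p = 0.0301 early and 0.37, adjusted p = 0.0341 late, limma). In MKK7D hearts they were 0.06 (95% interval -0.17 to 0.28, limma adjusted p = 0.897) early and -0.08 (95% interval -0.31 to 0.14, limma adjusted p = 0.999) late, with every group of that line between 54398 and 70215.

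Dsg2 encodes desmoglein-2, the desmosomal cadherin of heart muscle. It was lower in MKK3bE hearts at both times. In early MKK3bE females it read 7041 and 7745, against 10737, 18632 and 14414 in control females. Both arrays lay below all 3 controls, and the controls themselves differed widely. Dsg2 was 1.92-fold lower (-0.94 ± 0.29 as log2 ± SE, limma adjusted p = 0.0474). The call ended without control female replicate 1 (-0.75, adjusted p = 0.175) or 2 (-0.93, adjusted p = 0.0888) and without MKK3bE replicate 1 (-0.88, adjusted p = 0.246) or 2 (-1.01, adjusted p = 0.164), in limma.

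In late MKK3bE hearts Dsg2 read 7714, 6554 and 9043 in males and 9598 and 6624 in females, against 9777, 11457 and 11494 in control males. All 5 arrays lay below all 6 controls. Dsg2 was 1.59-fold lower (-0.66 ± 0.19 as log2 ± SE, limma adjusted p = 0.0278). Leaving out control male 2 or 5, control female 1 or 2, MKK3bE male replicate 2 or 3 or MKK3bE female replicate 3 ended the call, with limma adjusted p of 0.0504 to 0.158. All 5 further probe sets of Dsg2 lay lower in MKK3bE hearts, by 0.68 to 1.17 early and by 0.15 to 0.77 late on the log2 scale, and none of them passed over all probe sets. Adjusted in that same way, the brightest probe set passed late but not early (limma adjusted p over all probe sets = 0.0351 and 0.0575). In HRas-v12 hearts the changes were -0.29 (95% interval -0.69 to 0.10, limma adjusted p = 0.252) early and -0.25 (95% interval -0.62 to 0.12, limma adjusted p = 0.381) late.

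Dsg2 was also the one gene of the 8 at an unadjusted p under 0.05 in late MKK7D hearts. It read 5570.3, 6590.4 and 6683, against 7518, 7104 and 15547 in controls labelled replicates 8, 9 and 10. All 3 transgenic arrays lay below all 3 controls, and the change was -0.58 (95% interval -1.11 to -0.06, limma adjusted p = 0.974). Replicates 8 and 9 carry Esr1 at the transgenic level, and without the arrays in doubt the remaining control, replicate 10, set the value (-1.31, adjusted p = 0.0274 in limma). That fit assumes that a lone array varies like the other groups. All 5 further probe sets lay lower, by 0.50 to 0.85. The early change was -0.31 (95% interval -0.84 to 0.22, limma adjusted p = 0.71), with 6590.5, 7358 and 10518 in MKK7D hearts against 9873, 8882 and 11126 in controls.

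Tjp1 encodes ZO-1, the scaffold that binds connexin43 at the edge of gap junction plaques. In early HRas-v12 hearts it read 12979, 13802 and 13791 in males and 13740.1 and 18238 in females, against 18014, 20108 and 18957 in control males and 18289, 19564 and 19384 in control females. The array labelled female early replicate 3 read 18238 and overlapped the controls, and the other 4 lay far below them. Tjp1 was 1.3-fold lower (-0.38 ± 0.08 as log2 ± SE, limma adjusted p = 0.000613), and -0.48, adjusted p = 6.63e-06 without the arrays in doubt. This call remained under each of the 23 alternatives run, with values of -0.48 to -0.28. Of these, the mean of probe sets could not change its values, since Tjp1 has no further probe set. Late HRas-v12 hearts read 18287, 15919 and 21081 in males and 15487, 16095 and 16972 in females, where the females and male replicate 3 lay below all controls, male replicate 1 lay among them and male replicate 4 above them. The late change was -0.15 (95% interval -0.29 to 0.00, limma adjusted p = 0.183), and without the arrays in doubt it shrank to -0.04, adjusted p = 0.829.

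Late HRas-v12 hearts had higher Tjp1 than early ones (log2 difference 0.23, SE 0.08, limma adjusted p = 0.0456), in a comparison where 6.91% of all genes were higher and 4.67% lower. The difference was 0.44, adjusted p = 0.000339 without the arrays in doubt. It was 0.13 without female early replicate 1 (adjusted p = 0.421). The call also ended without any 1 of male early replicates 1, 2 and 3, female late replicates 2, 3 and 4 or male late replicates 1 and 4, with adjusted p of 0.0562 to 0.13. In MKK3bE hearts Tjp1 read 15813 and 15883 in early females, 17070.4, 16979 and 17972 in late males and 16914 and 16187 in late females. Every one of these lay below every control of its comparison, by 0.27 early and 0.17 late, and neither passed (limma adjusted p = 0.158 and 0.157). Both passed when the arrays in doubt, none of them MKK3bE or shared controls, left the fit (adjusted p = 0.0439 and 0.0495). In MKK7D hearts the changes were 0.07 (95% interval -0.14 to 0.28, limma adjusted p = 0.845) early and -0.16 (95% interval -0.37 to 0.05, limma adjusted p = 0.999) late.

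The other HRas-v12 changes without the arrays in doubt were as follows, and none of them except that of Jup in early hearts was called in limma. Late, they were -0.19, adjusted p = 0.338 for Gja1, -0.16, adjusted p = 0.594 for Cdh2, -0.15, adjusted p = 0.349 for Dsp and -0.19, adjusted p = 0.728 for Dsg2. Early, they were -0.21, adjusted p = 0.0608 for Gja1, 0.08, adjusted p = 0.637 for Cdh2, 0.40, adjusted p = 0.156 for Ctnna3, -0.13, adjusted p = 0.277 for Pkp2 and -0.31, adjusted p = 0.236 for Dsg2. Jup in early hearts was called (0.49, adjusted p = 0.00162).

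Cell type markers moved beside these genes. In early HRas-v12 hearts all 12 heart muscle markers fell (median log2 change -0.63), and their summed signal was 1077428 to 1660088, against 1778331 to 2343847 in controls. Endothelial markers, whose cells also express Tjp1, fell in 10 of 13, with sums of 55662 to 111002 against 88750.4 to 126382 in controls. Macrophage markers rose in 6 of 9 and fibroblast markers in 5 of 10, with 1 fibroblast marker lower. Of all genes tested, 15.1% rose and 18.7% fell in early HRas-v12 hearts. In late HRas-v12 hearts 8 of 12 heart muscle markers fell, beside 4.66% of all genes, with sums of 1188923 to 1810958. In MKK3bE hearts no heart muscle marker passed in limma at either time, with 6 early and 3 late at an unadjusted p under 0.05. Of all 12626 genes, 2949 early and 3338 late were at that level. At each time 4 of 10 fibroblast markers rose, beside 3.48% of all genes early and 5.06% late. Epithelial and epicardial markers, from cells that also build desmosomes, summed to 15477 to 15894 in early MKK3bE females and 11047 to 11995 in late ones, against 5496 to 8028 in control females. Late MKK3bE males had 6729 to 10749, against 4524 to 5319.7 in control males. Of the 5 tested, 1 rose at each time, the keratin gene Krt18, 16.2-fold early and 7.66-fold late (limma adjusted p = 0.00235 and 0.00066). Epcam stood at -0.56 early and 0.06 late and Wt1 at -0.31 and 0.14, none of them called. The part of these shifts in the values of disc genes was not tested. In a bulk sample, fewer cells of a type and less RNA per cell cannot be told apart.

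Differences between the lines were tested directly. Pkp2 was lower in HRas-v12 than in MKK3bE hearts, by 0.81 on the log2 scale in early females (SE 0.13, limma adjusted p = 0.00124) and by 0.48 late over both sexes (SE 0.08, adjusted p = 0.000886). Of all genes, 1.81% were called in the early comparison (1.35% lower) and 3.95% in the late one (2.04% lower), and Pkp2 was the one member of 8 called in each. Without the arrays in doubt these were -0.74, adjusted p = 0.0078 early and -0.47, adjusted p = 0.00367 late. The late difference was called under each of the 23 alternatives run, and the early one was not called without MKK3bE female early replicate 1 (-0.69, adjusted p = 0.0584). Dsp was lower in HRas-v12 than in MKK3bE hearts by 0.47 in early females and 0.26 late, short of the threshold (adjusted p = 0.0633 and 0.0642). Dsg2 differed by 0.52 (95% interval -0.13 to 1.17, limma adjusted p = 0.479) and 0.42 (95% interval 0.02 to 0.81, limma adjusted p = 0.255).

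The changes of the HRas-v12 and MKK7D lines, each against its own controls, differed for 4 of the 8 genes early, beside 4.65% of all genes (1.72% higher, 2.93% lower). All 4 differences were negative, -0.46 for Gja1 (SE 0.13, limma adjusted p = 0.0361), -0.51 for Pkp2 (SE 0.14, adjusted p = 0.0314), -0.47 for Dsp (SE 0.14, adjusted p = 0.0449) and -0.45 for Tjp1 (SE 0.13, adjusted p = 0.0407). With the mean of all probe sets Gja1 was -0.29, adjusted p = 0.415 and Dsp -0.10, adjusted p = 0.802. After quantile normalization Gja1 was -0.26, adjusted p = 0.335 and Dsp -0.31, adjusted p = 0.107. Pkp2 was called under both, and Tjp1 was called after quantile normalization. The mean of probe sets could not change the values of Tjp1, which has no further probe set. All 4 calls ended without the filter (0.052 to 0.0859), with median centring (0.0669 to 0.101) and when other groups were left out of the fit (0.0582 to 0.0747), and all but that of Pkp2 without the intensity trend (0.0502 to 0.0596). Each of the 4 calls ended without HRas-v12 female early replicate 1 (adjusted p = 0.0588 to 0.162), without HRas-v12 male early replicate 1 (0.0548 to 0.0766), without MKK7D replicate 7 (0.0904 to 0.128) and without the array labelled control female early replicate 1 of the MKK7D line (0.0891 to 0.153). Without all arrays in doubt the values were -0.44, adjusted p = 0.0442 for Gja1, -0.40, adjusted p = 0.0703 for Pkp2, -0.47, adjusted p = 0.0126 for Dsp and -0.51, adjusted p = 0.00414 for Tjp1. The Gja1 call also ended without MKK7D control 2, MKK7D replicate 6, control female 4 or control male 1 (0.0563 to 0.101). The Pkp2 call also ended without MKK7D control 3, MKK7D replicate 5 or control female 1 (0.0506 to 0.0818). The Dsp call also ended without HRas-v12 male early replicate 3, MKK7D control 3, MKK7D replicate 5 or 6, control male 1 or 2 or any control female (0.05 to 0.0991). The Tjp1 call also ended without MKK7D control 3, MKK7D replicate 5 or 6, control female 1 or 2 or control male 2 or 5 (0.0517 to 0.0721). Late, 0 of 8 and 0% of all genes were called by limma in that comparison, with Pkp2 among 1296 genes at an unadjusted p under 0.05. Between the MKK3bE and MKK7D changes 0 of 8 were called at either time (0.0713% of all genes early, 0.0634% late), with 1 of 8, Tjp1, at an unadjusted p under 0.05 early and 0 late. Of all genes, 1205 early and 1253 late were at that level. Dsg2 had an interval of -1.42 to 0.16 in the early comparison.

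The MKK7D controls stood apart from the shared control females in 2 of the 8 genes, which sets the level that the line is compared with. Gja1 was lower in them by 0.38 late and 0.46 early (SE 0.10 each, limma adjusted p = 0.0208 and 0.0224), where 10.7% and 1.47% of all genes were called. Dsp was lower by 0.45 late and 0.42 early (SE 0.11 each, adjusted p = 0.00988 and 0.0433). Cdh2 was lower by 0.50 early (adjusted p = 0.064). All 6 MKK7D control arrays read 55906 to 66014 for Gja1 and 56649 to 68577 for Dsp, below every control female. Without the arrays in doubt the early Gja1 difference was called (-0.46, adjusted p = 0.0429), and those of Dsp early (-0.34, adjusted p = 0.0731), Gja1 late (-0.30, adjusted p = 0.35) and Dsp late (-0.37, adjusted p = 0.153) were not. Leaving out any of the 6 arrays compared ended the early Dsp call (limma adjusted p = 0.0713 to 0.169). The early Gja1 call ended without MKK7D control 1 or 2 or control female 4 (0.0577 to 0.122), the late one without MKK7D control 8 or 9 or control female 4 (0.0745 to 0.107), and the late Dsp call without MKK7D control 9 or control female 4 (0.0605 and 0.0512). With the mean of all probe sets none of the 4 was called, with Gja1 at -0.23, adjusted p = 0.339 late and -0.35, adjusted p = 0.243 early and Dsp at -0.10, adjusted p = 0.712 late and -0.07, adjusted p = 0.867 early. Nor was any after quantile normalization, with Gja1 at -0.05, adjusted p = 0.827 late and -0.32, adjusted p = 0.201 early and Dsp at -0.11, adjusted p = 0.43 late and -0.27, adjusted p = 0.143 early. Leaving the other groups out of the fit also ended all 4 calls (0.0893 to 0.14), and the early Dsp call ended without the filter (0.081), without the intensity trend (0.0545) and with median centring (0.114). Summed heart muscle markers were 1235230.2 to 1652565 in late and 1423094 to 1817797 in early MKK7D controls, against 1975646 to 2343847 in control females. Line and sample set cannot be told apart here, since each control set is one group.

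No difference by sex was called among the 8. The change in males minus that in females was called for 0 of 8 genes by limma in early HRas-v12 (1.1% of all genes), late HRas-v12 (0%) and late MKK3bE hearts (0.00792%). At an unadjusted p under 0.05 there were 0, 1 and 0 of the 8, and 988 of all genes in late HRas-v12 hearts. The 1 was Dsg2 in late HRas-v12 hearts, at 0.81 (95% interval 0.06 to 1.55, limma adjusted p = 0.589). By sex it stood at 0.15 in males and -0.65 in females, and male replicates 1 and 3 carry the doubt on Esr1. Between control males and control females limma called 0 of 8 genes and 0% of all genes, with 1148 genes at an unadjusted p under 0.05. Jup, the 1 of the 8 among them, stood at -0.32 (95% interval -0.64 to 0.00, limma adjusted p = 0.539).

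Across all 13 groups the order of levels was loose. For each gene the gap between neighbouring groups was set against the spread (SD) of the 2 groups. Of the 12 neighbouring pairs, 3 were separated by more than that for Pkp2, 2 each for Gja1, Jup and Tjp1, 1 each for Cdh2, Dsg2 and Gja5, and 0 for Dsp and Ctnna3. Pkp2 ran from 53939 in early MKK3bE females to 27683 in late HRas-v12 females, a ratio of 1.95 between group means. Early MKK3bE females stood apart from the next group, late MKK3bE males, and late HRas-v12 females stood apart below late HRas-v12 males. Jup ran from 26549 in late HRas-v12 females, apart from all others, to 13553 in control males. Tjp1 was lowest in early HRas-v12 males at 13524 and Dsg2 highest in control females at 14594. Gja1, Cdh2, Dsp and Dsg2 all had their lowest group mean in late MKK7D females, at 55617, 38813, 58716 and 6281. Only for Dsg2 was the gap to the next group larger than the spread. For Gja1 and Cdh2 the next group was the early MKK7D controls, at 59168.5 and 38870.7. These values describe each probe set alone and do not rank genes against each other.

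**Figure D3:**
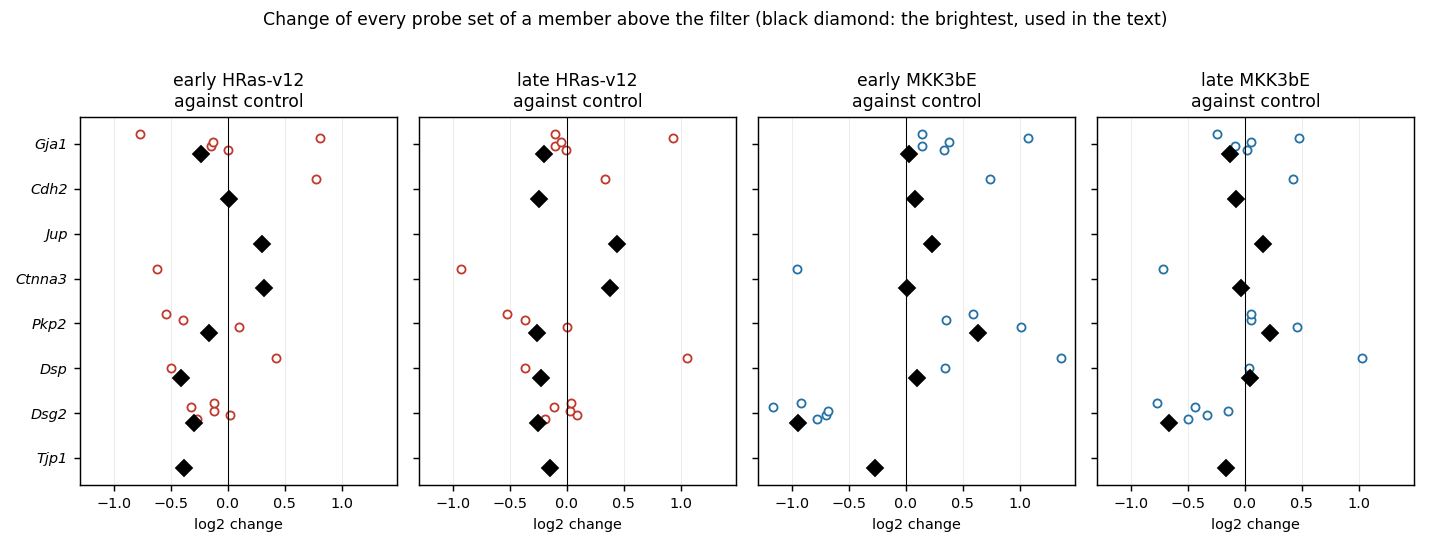
Log2 change (x axis) of every probe set above the filter for the 8 tested genes in the 4 comparisons with shared controls, with the brightest probe set as a black diamond and the others as open circles. All 6 Dsg2 probe sets lie below 0 in both MKK3bE panels, while single probe sets of Gja1, Dsp, Cdh2 and Ctnna3 lie far from the diamond of their gene.

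Over the 9 called pairs of a gene and a comparison with control, 6 had further probe sets, 23 in all. Of these 20 had the sign of the brightest and 3 the opposite sign. This counts signs of any size, not calls, and the 20 include 1415800_at of Gja1 at -0.00015 in early HRas-v12 hearts. The agreement was fullest for Dsg2, and Tjp1 and Jup could not be checked this way because each had 1 probe set.

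Other genes of the junctions and the disc were followed as 4 lists, 48 genes of which 38 were tested. In early HRas-v12 hearts 11 rose and 10 fell, beside 15.1% and 18.7% of all genes. In late HRas-v12 hearts 3 rose and 2 fell, beside 4.86% and 4.66%. In early MKK3bE hearts 6 rose and 1 fell, beside 3.48% and 2.78%. In late MKK3bE hearts 5 rose and 6 fell, beside 5.06% and 5.39%. In MKK7D hearts none of the 38 passed in limma at either time, with 10 early and 3 late at an unadjusted p under 0.05. Of all 12626 genes, 1346 early and 643 late were at that level. Their median log2 changes lay between -0.04 and 0.10 in all 6 comparisons, while all genes lay between -0.04 and 0.02.

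Among the other gap junction genes, 1 of 5 was called higher in early HRas-v12, late HRas-v12 and early MKK3bE hearts, and 1 higher and 1 lower in late MKK3bE hearts. Of all genes, 15.1%, 4.86% and 3.48% were higher in those hearts in that order. In late MKK3bE hearts 5.06% were higher and 5.39% lower. Panx1, which encodes the pannexin-1 channel, rose in 3 of these 4 comparisons. It was 7.33-fold higher in early MKK3bE hearts (2.87 ± 0.70 as log2 ± SE, adjusted p = 0.0147), and its mean signal was 2075 ± 785 (SD, n = 2) there, against a control female mean of 265 ± 121 (SD, n = 3). Late in that line the excess was 5.38-fold (2.43 ± 0.47 as log2 ± SE, adjusted p = 0.00187). Every transgenic array was above every control at both times, and early HRas-v12 hearts were 4.01-fold higher with overlap (adjusted p = 0.00201). The control female mean of Panx1 lay under the filter, near a signal of 414, which was set on the mean over all arrays. Groups with higher signals thus carried Panx1 past the filter. Its tests and separation are not free of that selection, and its folds rest on a dim control level. The early MKK3bE call ended without either MKK3bE array or without control female replicate 2 (limma adjusted p = 0.056 to 0.157). Gjc1, connexin45, was 1.55-fold higher in late HRas-v12 hearts (0.63 ± 0.12 as log2 ± SE, adjusted p = 0.0129). Gja3, connexin46, was 1.97-fold lower in late MKK3bE hearts (-0.98 ± 0.21 as log2 ± SE, adjusted p = 0.00447).

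Among desmosome genes Des, which encodes the desmin filament that desmoplakin anchors, was 1.6-fold higher in early and 1.3-fold higher in late MKK3bE hearts (limma adjusted p = 0.0114 and 0.023). These calls ended without control female replicate 2 at both times (0.0522 early, 0.0694 late), early without MKK3bE replicate 1 (0.21), and late without MKK3bE male replicate 2 (0.0655) or either female array (0.0522 and 0.111). With the mean of its probe sets neither Des change was called (0.256 early and 0.484 late). Perp, a desmosomal membrane protein, was 1.27-fold higher in early HRas-v12 hearts (adjusted p = 0.0249) and Pkp4, a plakophilin relative, 1.43-fold lower (adjusted p = 0.00205), both with overlap between the groups and both named after their values were seen. Among adherens junction genes, Ctnnb1, beta-catenin, was 1.26-fold lower in early HRas-v12 hearts, with all 5 arrays below all controls (-0.33 ± 0.06 as log2 ± SE, adjusted p = 0.000491), and not called with the mean of its probe sets (-0.10, adjusted p = 0.39). Vcl, vinculin, was 1.59-fold higher (0.67 ± 0.12 as log2 ± SE, adjusted p = 0.000154). Cdh11, a cadherin of fibroblasts, was 2.4-fold higher in late HRas-v12 and 3.7-fold higher in early MKK3bE hearts (adjusted p = 0.0146 and 0.0115). The first of these was not called without HRas-v12 male late replicate 3 (0.0536) and the second not without either MKK3bE array (0.0521 and 0.136). Fibroblast markers moved the same way, with 3 of 10 higher in late HRas-v12 and 4 of 10 in early MKK3bE hearts. This stood beside 4.86% and 3.48% of all genes, and the part of fibroblasts was not tested.

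Among scaffold and disc-associated genes, Fgf13, an intracellular partner of the cardiac sodium channel, was 1.97-fold lower in early and 1.95-fold lower in late MKK3bE hearts (-0.96 ± 0.14 as log2 ± SE, adjusted p = 7.62e-05 late). All MKK3bE arrays lay below all controls at both times, and the late call remained under each of 23 alternatives. The early call (adjusted p = 0.00579) ended without either MKK3bE array (0.0591 and 0.0615). Flnc, filamin C, was 2.09-fold higher early and 1.67-fold higher late in that line (limma adjusted p = 0.0217 and 0.0127). The early call of Flnc ended without either MKK3bE array or control females 1 or 2 (0.0579 to 0.145), and the late one without MKK3bE female replicate 3 (0.0634). Xirp1, the Xin repeat protein of the disc, was 1.62-fold higher in early HRas-v12 hearts and 1.87-fold higher in early MKK3bE hearts (adjusted p = 0.000455 and 0.00939). In both, every transgenic array lay above every control, and the MKK3bE call ended without either of its 2 arrays (0.0598 and 0.096).

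Mapre1, a microtubule end-binding protein, and Ilk, integrin-linked kinase, were 1.97-fold and 1.89-fold higher in early HRas-v12 hearts (limma adjusted p = 0.000189 and 3.78e-05). Actn2, the alpha-actinin of heart muscle, was 1.37-fold lower early and 1.24-fold lower late in that line (adjusted p = 0.000919 and 0.0354). The late call of Actn2 ended without any 1 of 7 arrays (adjusted p = 0.0502 to 0.126), which were control males 1 and 2, control females 4 and 1, HRas-v12 female late replicates 2 and 3 and male late replicate 3. Tmem43, a membrane protein tied to inherited arrhythmogenic cardiomyopathy, was 1.67-fold higher in late HRas-v12 and 1.78-fold higher in late MKK3bE hearts (adjusted p = 0.0218 and 0.00933). Without the arrays in doubt the first fell to 0.49, adjusted p = 0.153. It was also not called without HRas-v12 female late replicate 3 (0.0674) or male late replicate 3 (0.0857), and the second not without MKK3bE female late replicate 2 (0.0636). Lmo7 was 1.22-fold lower in late HRas-v12 hearts (adjusted p = 0.0383), and that call ended without any 1 of HRas-v12 female late replicates 3 and 4, male late replicate 3, control females 4, 1 and 2 and control males 1 and 5 (0.0579 to 0.138). Without the arrays in doubt the late HRas-v12 values were -0.28, adjusted p = 0.148 for Actn2, -0.21, adjusted p = 0.32 for Lmo7, 0.98, adjusted p = 0.0629 for Cdh11 and 0.58, adjusted p = 0.0311 for Gjc1, so that Gjc1 alone of the 5 named there was called.

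**Figure D4:**
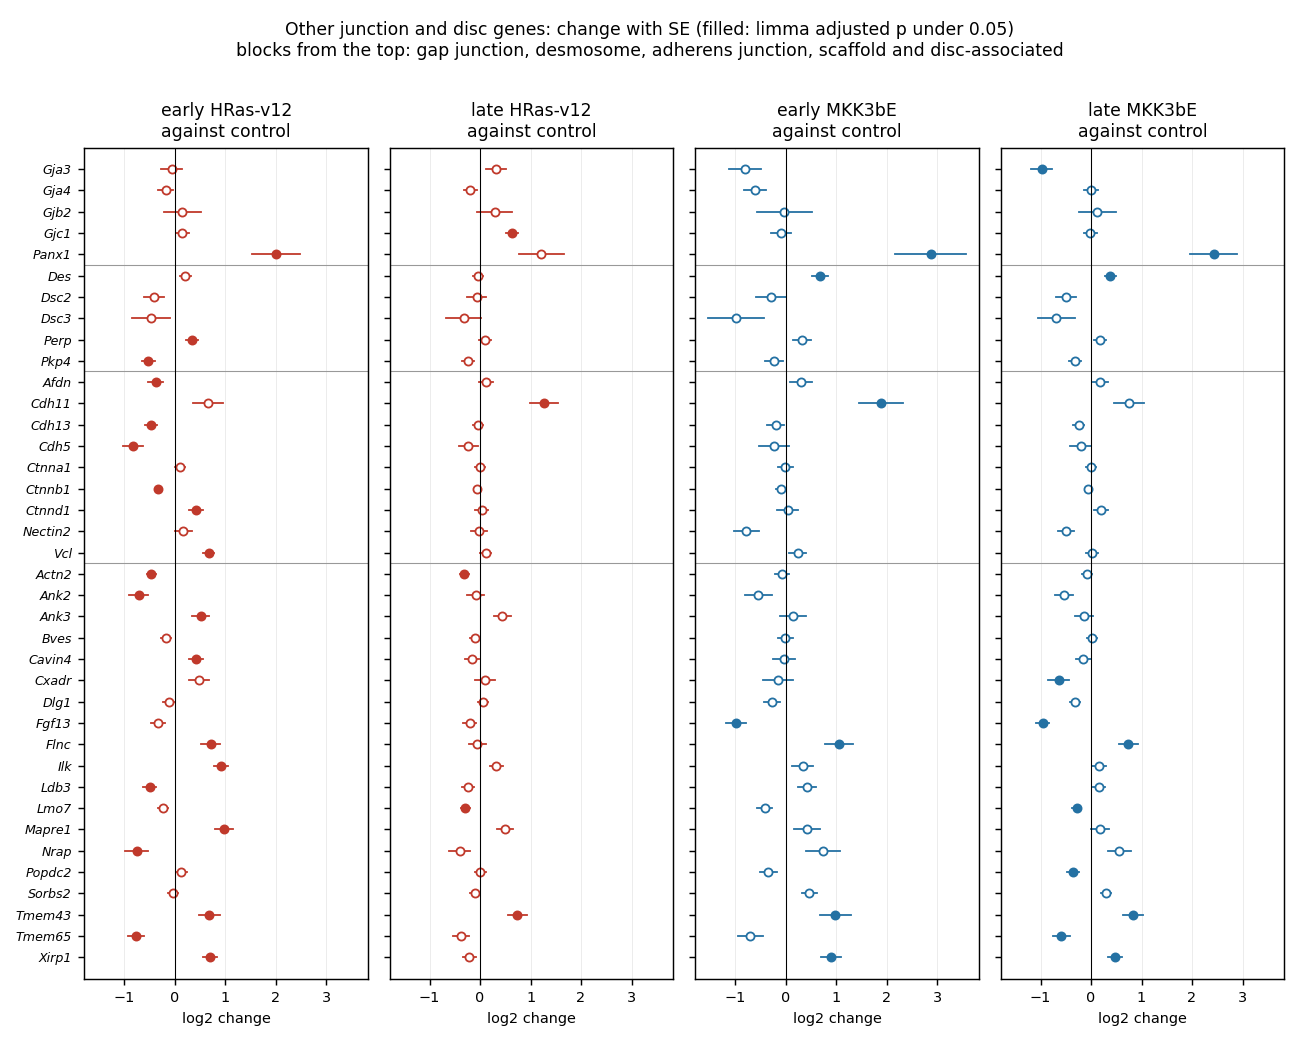
Log2 change (x axis) with SE of the 38 tested other junction and disc genes in the 4 comparisons with shared controls, in blocks of gap junction, desmosome, adherens junction and scaffold genes from the top, filled where the limma adjusted p was under 0.05. Early HRas-v12 hearts have filled points on both sides of 0, 11 higher and 10 lower. Panx1, whose control female mean lay under the filter on dim signals, lies farthest to the right in the MKK3bE panels.

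For each tested gene the 2 genes with the most similar profile were found by Pearson's r over the 13 group means of log2 signals, which share arrays and scaling and were searched over all genes. Gja1 was most like Ppp1cb (r = 0.96) and Prl7c1 (0.90). Pkp2 was most like Lars (0.95) and Hspb1 (0.93). Tjp1 was most like Gkap1 (0.96) and Tmem170b (0.95), and Dsp like Cdh4 (0.93) and Arl2 (0.91). For Dsg2 they were Sumo3 (0.90) and Prps2 (0.89), for Cdh2 Hnrnpk (0.89) and Srsf1 (0.86), for Jup Tada3 (0.87) and Abca9 (0.86), and for Ctnna3 Arhgap32 (0.85) and Xrn1 (0.83). These values are a description, with no test.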

How the data were processed

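RNA of mouse left ventricles was measured on 36 arrays. The values are linear signal intensities per probe set, deposited by the authors and made with MAS5, whose version is not given, per the submitters' processing notes. Each array had a mean signal of 2500 after trimming 2% at each end. Arrays limit the precision by their number, since they give no counts. Probe sets were named through the platform annotation given with the data, with symbols updated by gene number. Of 45101 probe sets, 34958 had 1 symbol, 932 several and 9211 none.

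Signals were taken as log2(signal + 32). The upper 60% of probe sets by mean log2 value were kept (a mean log2 value from 8.80 up, near a signal of 414), and each gene was read by its brightest. One limma model (version 3.58.1, R 4.3.3) with a mean for each of 13 groups was fitted to 12626 genes, with moderated statistics, an intensity trend and Benjamini-Hochberg adjustment over all genes at 0.05. Intervals are at 95%. Where both sexes were compared with shared controls, the male and the female change had equal weight. Comparisons with the shared controls share those arrays, and each comparison is given by its own values. The model was tested on simulated data.

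The 9 disc genes and the other lists were chosen with earlier results of these data known. All 9 are named, together with the 6 called genes of the other junction lists with the smallest adjusted p in each comparison, and for each tested gene the 2 genes nearest in profile. Alternatives changed the pseudocount (1 or 128), filter, scaling, trend, choice of probe set, array weights, replicate block and arrays included.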

Additional observations from a re-analysis of the deposited data

Results flagged for a closer look

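Differences between lines or times passed limma's test (adjusted over all genes) for 4 of the 8 tested disc genes. Pkp2 was lower in HRas-v12 than in MKK3bE hearts, by a log2 difference of -0.81 in early females and -0.48 late. There 1.81% and 3.95% of all genes were called, and the Pkp2 calls ended under 2 of 16 and 0 of 23 alternatives. The early change against each line's own controls was lower in HRas-v12 than in MKK7D hearts for Gja1 (-0.46), Pkp2 (-0.51), Dsp (-0.47) and Tjp1 (-0.45). This stood beside 4.65% of all genes, and each of these 4 calls ended under 12 to 20 of 29 alternatives. Late HRas-v12 hearts had more Tjp1 than early ones (0.23), beside 11.6% of all genes. That call ended under 14 of 23 alternatives. No test of a cause was made.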

How the results depend on the processing

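Of the 8 tested disc genes, 4 were called in early and 2 in late HRas-v12 hearts, beside 33.8% and 9.52% of all genes. In MKK3bE hearts 2 were called early and 1 late, beside 6.26% and 10.4%. In MKK7D hearts 0 were called at each time, beside 0.135% early and 0% late. For the alternatives below the share of all genes is not given, so their counts cannot be set against it. In early HRas-v12 hearts 2 were called with array weights, with a replicate block and with only the compared groups fitted. In late HRas-v12 hearts 1 was called without the filter, after quantile normalization, with the mean of probe sets, with a replicate block and without the arrays in doubt, 5 with each array centred on its median, 4 with array weights and 0 with only the compared groups fitted. In early MKK3bE hearts 1 was called without the filter, with centring or without the intensity trend. In late MKK3bE hearts 2 were called after quantile normalization and without the arrays in doubt, and 0 with a replicate block. In MKK7D hearts 1 was called early with array weights and 1 late without the arrays in doubt. Leaving out each array in turn gave 2 to 4 calls in early and 0 to 3 in late HRas-v12 hearts, 0 to 2 in early and 0 to 1 in late MKK3bE hearts, and 0 to 0 at both times in MKK7D hearts. After quantile normalization Gja1 in early HRas-v12 hearts turned to 0.036 and Actn2 in late HRas-v12 hearts to 0.016. The cause of these moves was not tested, other than that fits with fewer arrays have fewer degrees of freedom.

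The replicate numbers showed no clear pairing of arrays. Over 23 pairs of same-numbered arrays of the same sex, outside the MKK7D line, the correlation of deviations from group means ran from -0.34 to 0.12. The median was -0.01, and 4 pairs were over 0.1. With so few arrays per group this cannot exclude a pairing. With the replicate block 17 of 43 called results were lost and 26 kept. Of the 43, 10 were called under every alternative run and 33 were lost under at least 1. Over 1853 comparisons of a result with an alternative, 1555 kept direction and side of the threshold or moved little. Gja5 lay under the filter, with a median signal of 55.5 against 414, and has no test among the 12626 genes.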
